A study of Mus musculus with 1203 samples.

Results

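Among single cells that had been sorted from the mouse colon as tuft cells, 68 carried a low level of Trpm5 RNA, and they are described here as Trpm5-low cells. They were chosen by measured values: at least 1000 genes above 0 TPM (a transcript share that sums to 1000000 in each well), Trpm5 above 0 and below 50 TPM, Dclk1 below 100 TPM and Krt20 below 20 TPM. They made up 68 of the 766 cells of the tuft gate that passed the filter on detected genes (8.88%, 95% exact Clopper-Pearson interval 6.96 to 11.1%, counting error only), out of 1083 wells labelled tuft and 1203 wells in all. Each is set beside 2 other classes of the same gate. Trpm5-high tuft cells had at least 50 TPM of Trpm5 and at least 100 TPM of Dclk1 (60.97% of the 766). Trpm5-negative cells were listed at 0 for both Trpm5 and Dclk1 (20.4%).

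Tuft cells are rare chemosensory cells of the gut lining. They use a taste-like cascade in which G proteins, phospholipase C and the cation channel Trpm5 turn a luminal signal into a calcium-dependent response, and they release acetylcholine, lipid mediators and the cytokine Il25. Dclk1, a microtubule-associated kinase, and the transcription factor Pou2f3, which the lineage needs, are their usual markers. Krt20 is a keratin of mature surface colonocytes.

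Donor mice were female and 11 weeks old. Colon cells were profiled in plates by Smart-seq2, which copies polyadenylated RNA of 1 cell into full-length cDNA. One group was wild type. The other was labelled VillinCre;IPMKf/f, in which Cre under the Villin promoter, active in gut epithelium, removes floxed Ipmk, the gene of inositol polyphosphate multikinase; it is called conditional knockout below. Sorting used EPCAM, an epithelial surface protein, and SIGLEC-F, which marks tuft cells among epithelial cells, and a further 90 kept cells carried the label epithelial. The 16 plates form 7 plate sets, of which 1, 3 and 6 were wild type and 2, 4, 5 and 7 conditional knockout. No animal is named and no plate set holds both genotypes, so each genotype is 1 sample, no p-value was computed, and SDs are between plate sets and may be technical. TPM keeps no read depth, so detected genes (above 0 TPM) serve as a rough measure of it. Their median was 2357 in Trpm5-low, 2669 in Trpm5-high and 2743 in Trpm5-negative cells. The 18S ribosomal RNA entry took a median of 84.5%, 80.6% and 71.5% of all TPM in these classes, and mitochondrial genes took 2.64%, 2.23% and 5.49%. The part of these differences in the results was not tested.

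The limits of the rule cut through a continuous range. Of 93 tuft-gate cells with Trpm5 above 0 and below 50 TPM, 9 were left out by the Dclk1 limit alone, 14 by the Krt20 limit alone and 2 by both. Inside the rule Trpm5 ran from 2.24 to 49.5 TPM with a median of 23.7 TPM, and the nearest cell outside that met the other limits had 51.5 TPM. The highest Dclk1 value inside was 79.1 TPM against 102.1 TPM in the nearest cell outside, and the highest Krt20 value inside was 17.8 TPM against 27.2 TPM. Dclk1 was listed at 0 in 6 of the 68 cells and Krt20 in 62. Values of these 3 genes chose the cells and show nothing further. Genes that vary with Trpm5 across cells are also partly set by that choice.

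Trpm5-low cells were found in every plate set. Their share of kept tuft-gate cells was 4.71%, 10.1% and 11.8% in the wild type plate sets 1, 3 and 6, from 4, 11 and 32 cells. It was 8.00%, 4.72%, 7.29% and 13.04% in the conditional knockout plate sets 2, 4, 5 and 7, from 6, 5, 7 and 3 cells. The mean was 8.85 ± 3.69% (SD, n = 3 plate sets) in wild type and 8.26 ± 3.49% (SD, n = 4) in conditional knockout. The difference of −0.59 percentage points was smaller than either SD, and its sign turned without plate set 3, 4 or 6 (0.028, 0.59 and 0.86 points). Only 2 of the 90 kept epithelial-labelled cells met the same limits (2.22%, interval 0.27 to 7.80%). Of these 90, 21.1% met the limits of Trpm5-high tuft cells, 46.2% of 39 in wild type and 1.96% of 51 in conditional knockout. The epithelial label is thus not a reference free of tuft cells.

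The 5 genes given as marks of these cells were chosen with these data in view, so their levels are a description. Dmbt1, which encodes a secreted scavenger-receptor protein of mucosal surfaces, stood at 402.9, 384.6, 216.5, 358.95 and 291.3 TPM in Trpm5-low cells of plate sets 2 to 6, the 5 sets with at least 5 such cells. In Trpm5-high tuft cells of those sets it stood at 61.6, 48.2, 64.5, 17.6 and 20.9 TPM. No plate-set value overlapped between the classes, and the difference averaged 3.08 on the log2(mean TPM + 1) scale. Plate sets 1 and 7, with fewer Trpm5-low cells, stood apart the same way (446.9 and 201.8 TPM against 19.3 TPM and 0). Dmbt1 was above 0 in 97.1% of Trpm5-low cells, 15.6% of Trpm5-high cells and 80.1% of Trpm5-negative cells.

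Krt19, a keratin of simple epithelia, had plate-set means of 148.2, 296.7, 243.7, 402.4 and 294.4 TPM in Trpm5-low cells and of 63.3, 37.7, 87.7, 64.6 and 29.7 TPM in Trpm5-high cells. The lowest of the former lay above the highest of the latter, a log2 difference of 2.30, and Krt19 was above 0 in 97.1% and 17.99% of cells. Sult1a1, a sulfotransferase acting on phenols, averaged 92.2 ± 28.1 TPM in Trpm5-low and 21.2 ± 7.61 TPM in Trpm5-high cells (SD, n = 5 plate sets), again without overlap, and was above 0 in 89.7% and 16.7% of cells. These 3 genes were higher in each of the 5 plate sets.

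Gsdmc2, a gasdermin, was above 0 in 66.2% of Trpm5-low and 5.57% of Trpm5-high cells, but its mean was higher in only 4 of 5 plate sets. In plate set 2 it was 4.06 TPM against 10.9 TPM. Gsdmc2, Gsdmc3 and Gsdmc4 lie next to each other on chromosome 15 and are near-identical, so the deposited values may divide reads among them arbitrarily. Fermt1, which encodes an integrin-binding kindlin of epithelial cells, went against the label. Its mean was 1.70 ± 1.09 TPM in Trpm5-low and 38.1 ± 44.3 TPM in Trpm5-high cells, although a larger share of Trpm5-low cells had it (52.9% against 35.1%). The highest single cell had 12.8 TPM among Trpm5-low and 3397 TPM among Trpm5-high cells, so the means follow a few cells. Averaged over cells as log2(TPM + 1), the Fermt1 difference was −0.03.

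The annotation of the mouse build GRCm38 places Dmbt1 at chr7:131032053-131121630 (plus strand), Krt19 at chr11:100140810-100148665 (minus strand) and Trpm5, which chose the cells, at chr7:143069153-143094642 (minus strand).

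**Figure D1:**
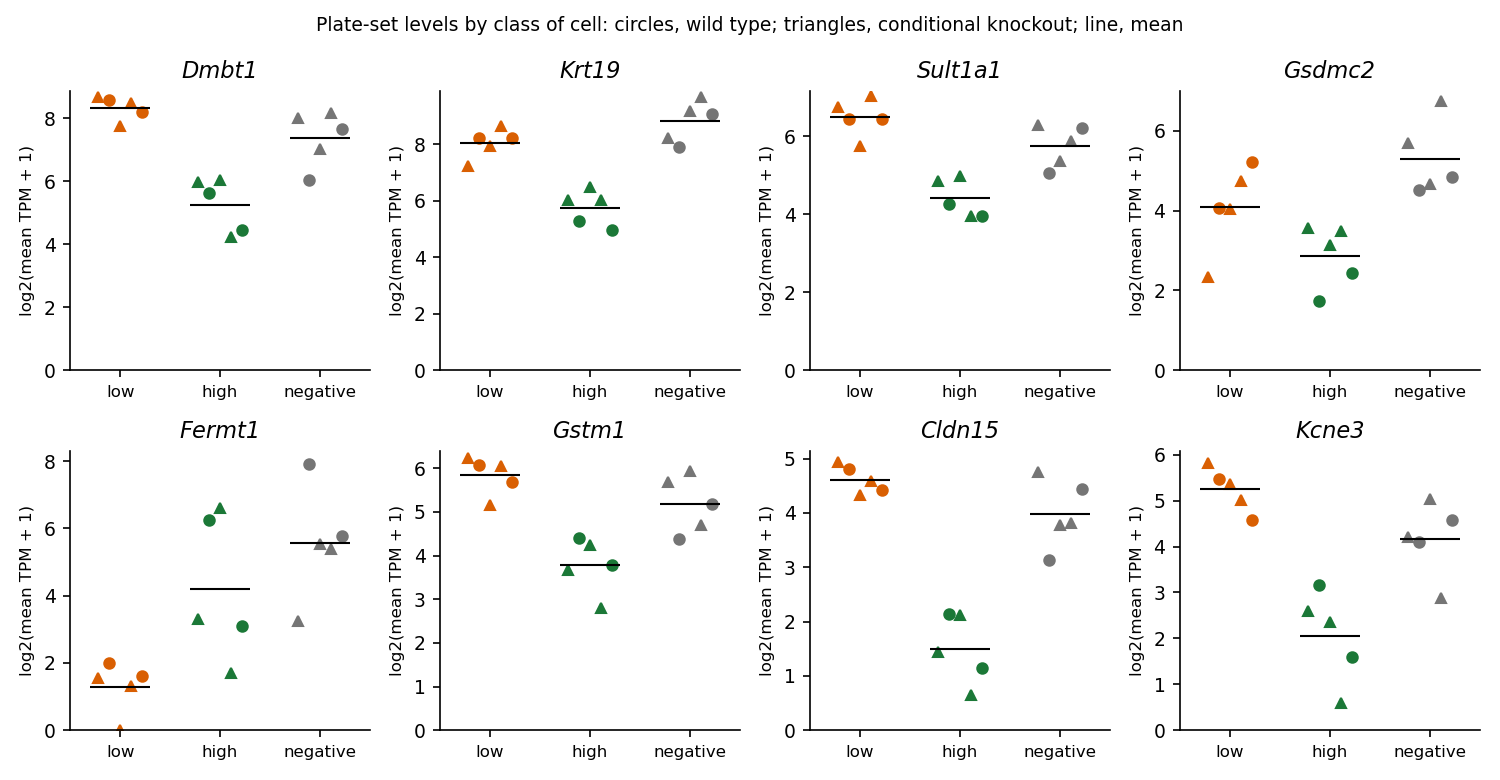
Mean TPM per plate set on the log2(mean TPM + 1) scale for the 5 genes given for these cells and for Gstm1, Cldn15 and Kcne3, in Trpm5-low (low), Trpm5-high tuft (high) and Trpm5-negative (negative) cells of plate sets 2 to 6; circles are wild type, triangles conditional knockout, and the line is the mean of 5. Dmbt1, Krt19, Sult1a1, Gstm1, Cldn15 and Kcne3 do not overlap between the low and high classes, while Fermt1 is lower in the low class (1.70 against 38.1 TPM).

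The 2 sets of RNAs occurred in the same cells. Of the 68 Trpm5-low cells, 66 had both Dmbt1 and Krt19 above 0, which was the case in 9.64% of Trpm5-high and 73.1% of Trpm5-negative cells. To follow the tuft programme, 46 genes of the tuft lists (transcription factors, taste signalling, identity genes and eicosanoid synthesis) with at least 10 TPM in Trpm5-high cells were counted. A Trpm5-low cell had a median of 18.5 of them above 0 (range 3 to 39), a Trpm5-high cell 39 (20 to 45) and a Trpm5-negative cell 6 (0 to 17). At least 20 were present in 29 of 68 Trpm5-low cells, in every Trpm5-high cell and in 0 Trpm5-negative cells, which allows a share of up to 1.92% of cells with that many detected (counting error only). Both Dmbt1 and Krt19 together with at least 10 tuft genes were present in 58 of the 68. The 2 Trpm5-low cells listed at 0 for both Dmbt1 and Krt19 held 29 and 34 tuft genes. Doublet wells were not looked for.

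**Figure D2:**
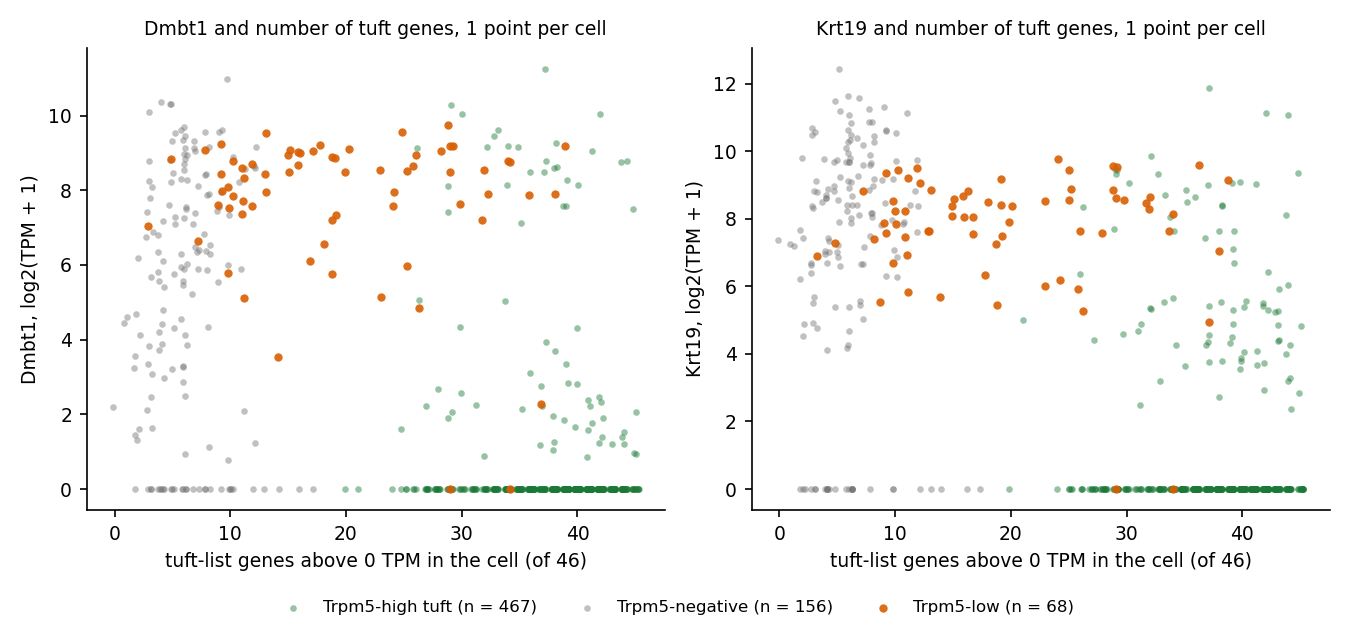
Each point is 1 cell of the tuft gate, with the number of 46 tuft-list genes above 0 TPM on the x axis and Dmbt1 (left) or Krt19 (right) as log2(TPM + 1) on the y axis; points are shifted sideways at random to show overlaps. The 68 Trpm5-low cells run from 3 to 39 tuft genes between the other classes, and 66 of them have both Dmbt1 and Krt19 above 0.

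Across many genes, Trpm5-low cells were compared with Trpm5-high tuft cells within plate sets 2 to 6. With no replicate animals to test, genes were called by size: at least 10 TPM in either class, an average difference of 2-fold or more, and the same direction in each of the 5 plate sets. Of 2223 genes that reached the floor, 110 were higher (4.95%) and 820 lower (36.9%) in Trpm5-low cells. The median of all 2223 was −1.05 on the log2 scale, so the balance of calls is tilted downward, and differences below are to be read against that median. A gene that reached the floor through 1 class alone was bound to be higher there, so counts of called genes within a list are a description, and the share of cells with the gene is given over whole lists beside them. The plate sets held 5 to 32 Trpm5-low cells and at least 53 Trpm5-high cells, and the part of this in the tilt was not tested. Averaging log2(TPM + 1) over cells gave a median of −0.29, with 12.01% higher and 23.8% lower, and 94.5% of the 110 higher and 61.2% of the 820 lower genes were called both ways. After rescaling TPM without mitochondrial genes and the 20 most abundant others, 7.04% of 9897 were higher and 21.5% lower.

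The 12 higher genes with the largest differences were Kcne3, Cldn15, Dmbt1, Cdk1, Tyms, Gpx2, Shmt1, Csrp2, Mgst1, Txn2, Cela1 and Fuom. Kcne3, a potassium channel subunit of secretory epithelia, stood at 55.9, 43.2, 39.95, 31.3 and 23.02 TPM in plate sets 2 to 6 against 5.03, 7.92, 4.09, 0.52 and 2.01 TPM, a log2 difference of 3.19. Cldn15, a pore-forming claudin of tight junctions, ranged from 19.02 to 29.6 TPM in Trpm5-low cells and from 0.56 to 3.398 TPM in Trpm5-high cells, and 85.3% against 5.996% of cells had it. For both genes all 5 plate-set values lay above those of the other class. Gpx2, a glutathione peroxidase of the gut lining, was present in 76.5% and 13.5% of cells and differed by 2.82, and Mgst1, a microsomal glutathione transferase, was present in 61.8% and 6.21% and differed by 2.66. Csrp2, a LIM domain protein, was present in 80.9% and 8.57% of cells. The mean of Txn2, a mitochondrial thioredoxin, was pulled up by plate set 5, where it reached 883.1 TPM against 27.6 to 185.6 TPM in the other 4. The 12 differences kept their sign under each of 17 alternative settings. The rule asks for the same direction in all 5 plate sets. Leaving out plate sets, using 1 genotype, or changing the pseudocount or floor therefore could not turn a sign. Only a change of cells, the mean of logs or rescaled TPM could turn one.

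Enzymes of detoxification and lipid metabolism were mostly higher in Trpm5-low than in Trpm5-high cells. Of 24 listed genes 10 reached the floor, 4 of them through Trpm5-low cells alone, of which 7 were higher and 1, Cyp4f14, was lower, with a median log2 difference of 1.38 against −1.05 over all genes. Gstm1, a glutathione transferase, averaged 58.3 ± 15.8 TPM against 13.7 TPM and was present in 82.4% and 21.2% of cells, and Gsto1 averaged 74.6 ± 26.5 TPM against 27.9 TPM. Gstm3, Gsta4, Aldh1b1 and Sult1a1 were also higher. A larger share of Trpm5-low cells had the gene for 22 of the 24. Against Trpm5-negative cells 0 of 15 that reached the floor were higher and 5 lower, with a median of −0.33 against −1.13 over all genes. Over all genes 0.798% were higher and 31.5% lower, so these counts are no result about this list. Against those with Krt20 below 20 TPM 0 of 12 were higher and 1 lower, with a median of −0.39 against −1.02. There 0.543% of all genes were higher and 22.5% lower. By the mean of logs 3 of 15 and 2 of 12 were higher, against 3.71% and 1.09% over all genes. The share of cells was larger in Trpm5-low cells for 15 of the 24 and smaller for 9, and with the Krt20 limit larger for 19 and smaller for 5. Of 30 listed colonocyte genes 12 reached 10 TPM against Trpm5-high cells, with a median log2 difference of −0.16 against −1.05 over all genes. Car2 and Muc3 were higher and the brush border protocadherins Cdhr2 and Cdhr5 lower, where 4.95% of all genes were higher and 36.9% lower. By the mean of logs 5 of the 12 were higher and 2 lower. The share of cells with the gene was larger in Trpm5-low cells for 22 of the 30 and smaller for 8. Car2, a carbonic anhydrase, was present in 92.6% and 31.7% of cells.

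Cell cycle genes were detected in more of these cells. Of 24 listed genes 4 reached the floor, 3 of them through Trpm5-low cells alone, and 2 met the rule, Cdk1, the kinase that drives entry into mitosis, and Tyms, which makes thymidylate for DNA synthesis. Cdk1 stood at 36.5, 9.54, 1.89, 25.97 and 20.6 TPM in Trpm5-low cells of plate sets 2 to 6 and at most at 2.90 TPM in Trpm5-high cells, and 26.5% against 2.57% of cells had it. Tyms differed by 2.85 on the log2 scale and was present in 35.3% and 8.57% of cells. The share of cells was larger for 23 of the 24 genes, among them Mki67 (30.9% against 2.78%), Mcm6 (47.1% against 7.71%) and Ccna2 (26.5% against 2.14%). At least 5 of the 24 were above 0 in 58.8% of Trpm5-low, 8.35% of Trpm5-high and 23.1% of Trpm5-negative cells. Among the Trpm5-negative cells with Krt20 below 20 TPM, the limit that also chose the Trpm5-low cells, the share was 43.4%. A median of 4 cell cycle genes was above 0 in those cells, against 6 in Trpm5-low and 1.5 in all Trpm5-negative cells. Relative to those with Krt20 below 20 TPM, 0 of 9 cell cycle genes that reached the floor were higher and 1 was lower in Trpm5-low cells. Over all genes 0.543% were higher and 22.5% lower. The median log2 difference of the 9 was −0.56, against −1.02 over all genes. Among Trpm5-low cells the number of cell cycle genes varied with the number of genes detected (Pearson r = 0.52, Spearman rho = 0.49 over 68 cells that share plates, a description). In Trpm5-low cells with 1000 to 2329 genes a median of 3 was above 0, against 0 in Trpm5-negative cells of that range at any Krt20 level. With 2384 to 6572 genes it was 8.5 against 3. The part of depth in these counts was not tested. Phases were not assigned.

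Stem and progenitor genes were mixed. The share of Trpm5-low cells with the gene was larger than that of Trpm5-high cells for 11 of the 18 listed and smaller for 7. The 3 that reached the floor, 2 of them (Lgr5 and Sox9) through Trpm5-high cells alone, were lower: Lgr5, the Wnt-responsive stem cell receptor (2.11 against 25.3 TPM), Prom1 (13.2 against 41.7 TPM) and Sox9 (7.30 against 26.5 TPM). Lgr5 was above 0 in 59.3% of Trpm5-high and 39.7% of Trpm5-low cells. With rescaled TPM, Cdca7 and Aqp4 of this list were called higher (2.93 and 3.34 on the log2 scale). Cdx2, an intestinal homeobox factor, was higher at 16.7 ± 6.87 TPM against 5.202 TPM, while 3 others, among them Ehf and Klf4, were lower, out of 18 listed epithelial transcription factors of which 8 reached the floor. The 3 of 8 lower is near the 36.9% of all genes and is no result about these factors, and the share of cells was larger in Trpm5-low cells for 13 of the 18.

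Early response genes were also higher, 5 of 8 that reached the floor (3 of the 8 through Trpm5-low cells alone) among 18 listed: Fos, Jun, Junb, Atf3 and Ier2. Fos averaged 97.2 ± 31.5 TPM against 22.5 TPM and was present in 92.6% and 25.1% of cells. In Trpm5-negative cells Fos averaged 221.96 TPM, and none of the 11 that reached the floor in that comparison was higher in Trpm5-low than in Trpm5-negative cells. Over all genes only 0.798% were higher there. Of 20 ribosomal protein genes 19 reached the floor and 3 were higher, Rplp0, Rps2 and Rps9, with a median difference of 0.63. Rescaled TPM gave 10 higher genes of 20 and the mean of logs 7 of 19, and none was lower under either.

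Interferon response genes lay the other way. The share of cells was smaller in Trpm5-low than in Trpm5-high cells for each of the 20 listed. The 7 that reached the floor, 6 of them through Trpm5-high cells alone, were lower, among them Irf7, Oas1a, Oas2, Oasl2, Bst2 and Ifi27l2b. Irf7, the transcription factor that amplifies the response, averaged 3.05 ± 2.97 TPM against 68.3 TPM and was present in 23.5% and 66.2% of cells. By the mean of logs 4 of the 7 were called. The share of cells was also smaller than in all Trpm5-negative cells for 18 of the 20. Against Trpm5-negative cells with Krt20 below 20 TPM it was smaller for 10 and larger for 8. In that comparison 0 of 3 genes that reached the floor were lower.

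Of 23 adhesion and junction genes 10 reached the floor, with Cldn15 higher and Itgb4, F11r and Fermt1 lower. Over all genes 4.95% were higher and 36.9% lower, so the 3 of 10 lower is no result about this list. Of 15 genes of secreted host defence 6 reached the floor, with a median log2 difference of 1.23 against −1.05 over all genes, and with Dmbt1 and Pigr, the receptor that carries IgA across the epithelium (94.6 against 35.4 TPM), higher. By the mean of logs 3 of these 6 were higher. Of 7 gasdermins 2 reached it, both through Trpm5-low cells alone, with a median of 1.13. Neither gasdermin was called by the main rule and both were higher by the mean of logs. Of 21 goblet genes 3 reached it, also through Trpm5-low cells alone, with none called. Ptprc, which encodes CD45 and is also found in tuft cells, was above 0 in 19.1% of Trpm5-low and 73.02% of Trpm5-high cells.

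**Figure D3:**
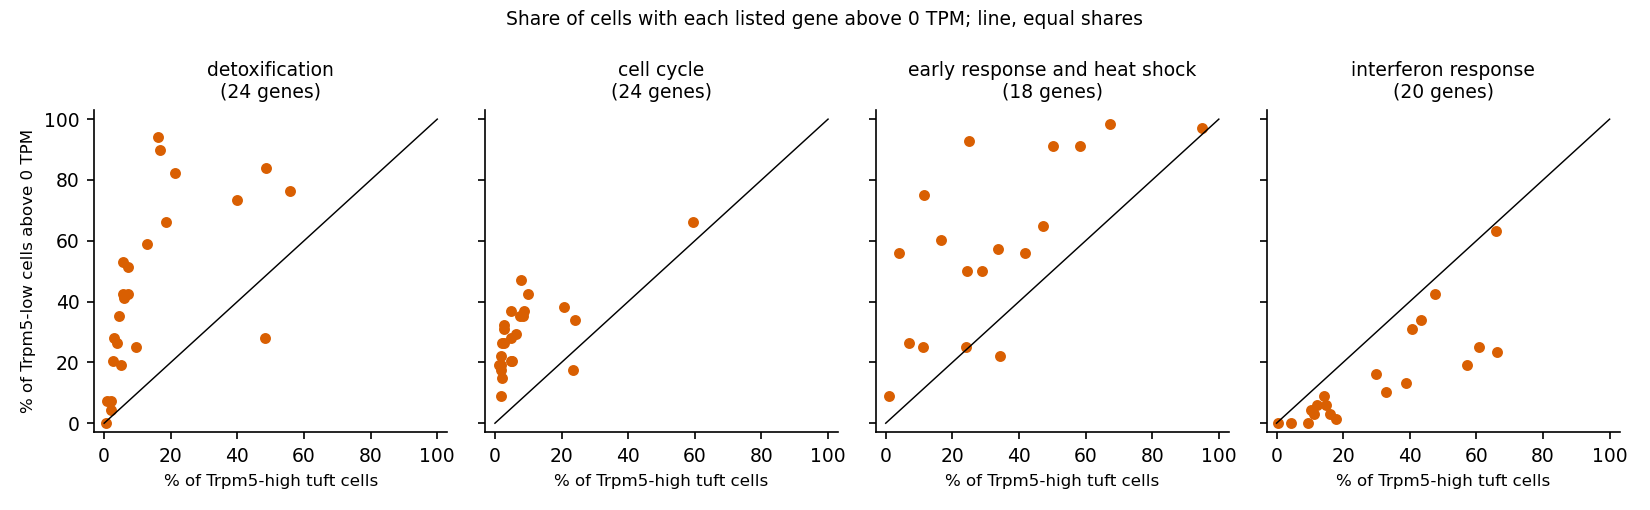
For the detoxification, cell cycle, early response and heat shock, and interferon lists, each point is 1 gene, with the percent of Trpm5-high tuft cells above 0 TPM on the x axis and the percent of Trpm5-low cells on the y axis; the line marks equal shares. Points lie above the line for 22 of 24 detoxification and 23 of 24 cell cycle genes and below it for 20 of 20 interferon genes.

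The lower genes with the largest differences were Spink1, Smim22, Mrpl52, Atp2b4, Fabp1, Rn7s1, Rn7s2, Hist1h2al, Cdkn1c, Romo1, Sct and Tspan6. Spink1, a secreted trypsin inhibitor, was listed at 0 in all Trpm5-low cells of plate sets 2 to 5 and averaged 14.6 TPM in plate set 6, against 310 to 673 TPM in Trpm5-high cells. Overall 2.94% of Trpm5-low and 49.7% of Trpm5-high cells had it. Cdkn1c, an inhibitor of cyclin-dependent kinases, was present in 19.1% and 65.7% of cells and averaged at most 2.38 TPM in Trpm5-low cells of any of the 5 plate sets against at least 54.9 TPM in Trpm5-high cells. Tspan6, a tetraspanin, was present in 11.8% and 71.7% of cells. Fabp1, a fatty acid binding protein, was listed at 0 in every Trpm5-low and Trpm5-negative cell and was present in 25.9% of Trpm5-high cells. Several means rest on few cells: Atp2b4, a calcium pump, was above 0 in 14.3% of Trpm5-high cells, and Rn7s1 and Rn7s2, copies of 7SL RNA with equal values, in 8.99%. Atp2b4, Rn7s1 and Rn7s2 were not called by the mean of logs.

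The 46 tuft genes were kept for at least 10 TPM in Trpm5-high cells, which by itself favours a lower level in Trpm5-low cells, so their levels are a description. Their median in Trpm5-low cells was 9.58% of the Trpm5-high level (quartiles 4.79 and 12.8%, range 0 to 41.3%), against 1.33% in Trpm5-negative cells. By plate set the median was 10.4%, 7.25%, 10.3%, 2.65% and 11.5% in plate sets 2 to 6, lowest in plate set 5. Trpm5 itself, which chose the cells, stood at 9.37%, Dclk1 at 5.09% and Siglecf, the gene of the sorting marker, at 7.16%. Among the 33 genes below 5% in Trpm5-negative cells the median was 9.44% (range 0 to 18.6%). The median was 15.9% with rescaled TPM, 5.97% in cells with 1000 to 3000 genes and 4.83% with Trpm5 below 25 TPM.

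Among 12 tuft transcription factors the share of cells with the gene was smaller in Trpm5-low than in Trpm5-high cells for 8 and larger for 3. All 7 that reached the floor did so through Trpm5-high cells alone, so their direction, lower, follows from the floor. Pou2f3 stood at 2.36, 3.79, 0.52, 0.33 and 1.16 TPM in plate sets 2 to 6, against 15.0 to 21.9 TPM in Trpm5-high cells and 0 in all Trpm5-negative cells, and 26.5% and 81.8% of cells had it. Gfi1b, a repressor found in tuft cells, was at 3.17% of the Trpm5-high level, Spib at 7.26%, Hmx2 at 9.73%, Hmx3 at 12.05% and Sox9 at 27.5%. Among 14 taste signalling genes the share was smaller for 12, and the 8 that reached the floor again did so through Trpm5-high cells alone. Gng13, the G protein gamma subunit of taste cells, was listed at 0 in all Trpm5-low cells and above 0 in 7.49% of Trpm5-high cells. Gnat3, the alpha subunit gustducin, stood at 3.62%, and the phospholipases Plcg2 and Plcb2 at 8.54% and 13.2%.

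The share of cells was smaller for 28 of 30 identity genes and for 7 of 10 eicosanoid genes. Of 26 and 5 that reached the floor, all lower, 14 and 3 did so through Trpm5-high cells alone. Matk, a kinase that inactivates Src family kinases, averaged 40.3 ± 29.8 TPM against 371.5 TPM, which is 10.8%, and was above 0 in 88.2% of Trpm5-low, 99.6% of Trpm5-high and 1.28% of Trpm5-negative cells. Il17rb, the receptor subunit for Il25, stood at 3.68%, and Chat, which makes acetylcholine, at 13.7%. Alox5, the first enzyme of leukotriene synthesis, stood at 13.7%, while Ltc4s, which makes leukotriene C4, was at 6.07% and Hpgds, which makes prostaglandin D2, at 3.27%. Sh2d6, an adaptor protein, and Fyb, another adaptor, were set by single cells: the highest cell gave 55.5% of the summed Sh2d6 and, for Fyb, 78.998% of its sum, and without that cell they stood at 7.51% and 7.09% rather than 15.8% and 18.6%. Keratins divided: Krt18 (201.9 ± 74.04 against 2484 TPM), Krt8 (424.8 ± 84.4 against 1215 TPM) and Krt23 were lower, whereas Krt19 was higher.

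**Figure D4:**
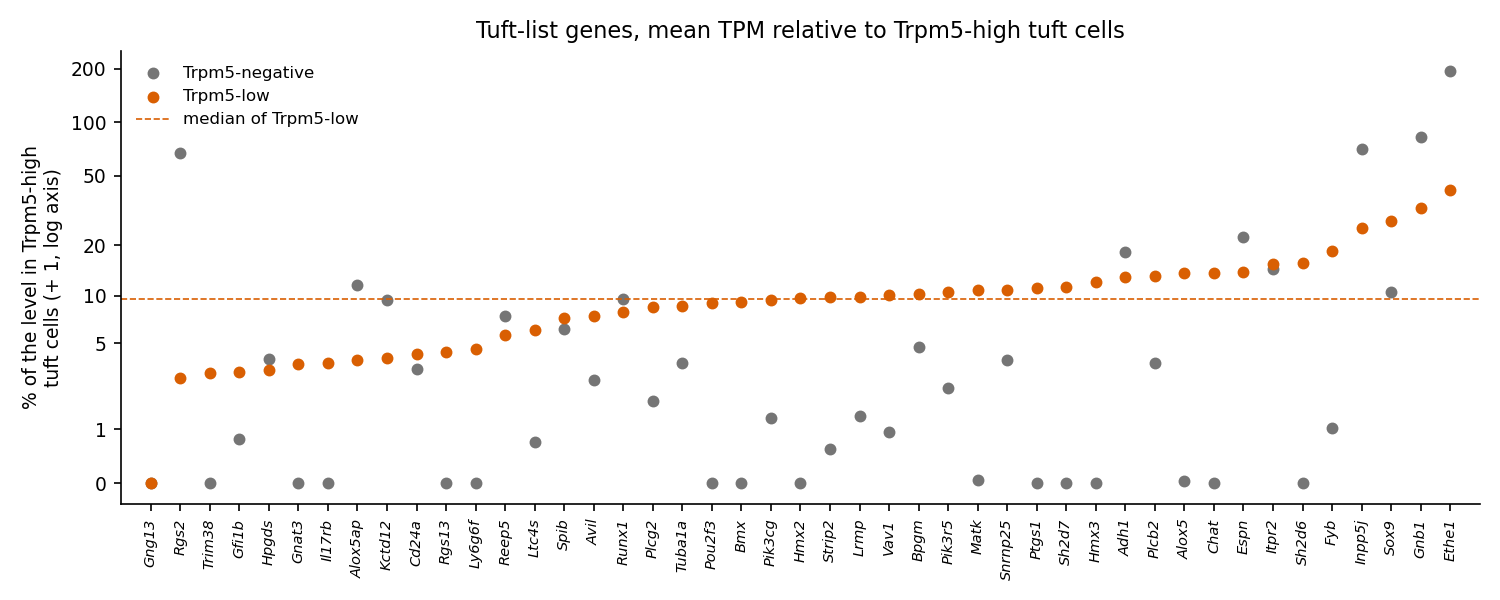
Mean TPM of 45 of the 46 tuft-list genes in Trpm5-low and Trpm5-negative cells as a percent of the mean in Trpm5-high tuft cells (plate sets 2 to 6 weighted equally), with 1 added, on a log axis and ordered by the Trpm5-low value. Trpm5-low values centre on 9.58% (dashed line, the median of all 46) and run from 0 (Gng13) to 41.3% (Ethe1), while many Trpm5-negative values are at or near 0.

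Against Trpm5-negative cells, 20 of 2505 genes that reached the floor were higher (0.798%) and 790 lower (31.5%), with a median over all of −1.13. The mean of logs gave 3.71% higher and 15.2% lower, and rescaled TPM 5.55% and 10.03% of 9592. Among the highest were Sh2d6, Matk, Trpm5, Dclk1, Alox5, Sh2d7, Nebl, Fyb and Nav2. Of the 20 higher genes, 12 (60%) were among the 820 that were lower than in Trpm5-high cells (1.46% of those). These 12 include Trpm5 and Dclk1, whose place between the classes the rule fixed, and nothing is read from the count. Because Trpm5 above 0 chose one class and 0 the other, tuft genes differ here partly by the choice. The mean of Nebl, an actin-binding protein, was set by plate set 3, where it reached 328.8 TPM against at most 2.84 TPM in the other 4. By the main rule Kcne3 was the one named gene higher than in both other classes, at 38.7 ± 12.4 TPM against 18.99 ± 9.41 TPM in Trpm5-negative cells. It did not differ so when these were limited to Krt20 below 20 TPM (a log2 difference of 0.10). By the mean of logs and with rescaled TPM, Dmbt1, Sult1a1, Cldn15, Gpx2, Shmt1, Csrp2 and Mgst1 were also called higher than in both, among them Cldn15 at 2.34 and 2.05 above all Trpm5-negative cells. Against those with Krt20 below 20 TPM, Dmbt1 (3.14) and Sult1a1 (2.06) were still called higher by the mean of logs. Cldn15 (0.91), Gpx2 (0.81), Shmt1 (0.73), Csrp2 (1.77) and Mgst1 (0.73) were not.

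Mature colonocyte genes were lower than in Trpm5-negative cells in 25 of 28 that reached the floor among 30 listed. Sprr2a2, a surface cell proline-rich protein, averaged 99.2 TPM against 11207 TPM, and Car4, a carbonic anhydrase, 3.30 TPM against 265.6 TPM. Saa1, Aqp8, Clca4a and Tgm3 were listed at 0 in all Trpm5-low cells. The limit on Krt20 applied to Trpm5-low cells only, so a comparison with the 76 Trpm5-negative cells below 20 TPM of Krt20 was added after the data were seen. In it 14 of 2577 genes were higher (0.543%) and 580 lower (22.5%), and 7 of 19 colonocyte genes were lower. Among goblet genes 7 of 9 that reached the floor were lower, among them Spink4, Tff3 and Muc2, the main gel-forming mucin. Muc2 was above 0 in 16.2% and 22.4% of cells, so its mean difference rests on few cells, and 2 Trpm5-low cells had at least 1000 TPM of it. None of the 9 was called by the mean of logs. Against Trpm5-negative cells with Krt20 below 20 TPM, 10 of 14 goblet genes that reached the floor were lower, and 9 of 14 by the mean of logs. Over all genes these shares were 22.5% and 11.4%. In that comparison the share of cells was smaller in Trpm5-low cells for 20 of the 21 goblet genes and larger for 1.

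Of the 110 genes higher than in Trpm5-high tuft cells, 2 were also higher than in Trpm5-negative cells, Kcne3 and a pseudogene of a ribosomal protein gene, and 9 were lower, among them Muc3. Dmbt1 differed by 0.96 on the log2 scale and Sult1a1 by 0.73, both positive in sign under each of 19 alternative settings and past 2-fold by the mean of logs. Krt19 differed by −0.76 and Gsdmc2 by −1.21, with either sign among the alternatives. Krt18 was higher than in Trpm5-negative cells (201.9 against 85.1 TPM). Ipmk, the targeted gene, averaged 1.90 ± 1.67 TPM in Trpm5-low, 4.64 TPM in Trpm5-high and 25.4 TPM in Trpm5-negative cells, and 26.5%, 19.1% and 53.8% of cells had it. Its plate-set values within Trpm5-low cells overlapped between wild type (2.73 ± 2.46 TPM, SD, 2 plate sets) and conditional knockout (1.35 ± 1.18 TPM, 3 plate sets), so the label of the knockout is not visible in its level here.

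Markers of non-epithelial and enteroendocrine cells were at or near 0. Of 8 eosinophil genes, which matter because SIGLEC-F also marks eosinophils, all were listed at 0 in the 68 cells, which allows up to 4.41% of cells with such a gene detected. That limit covers counting error only and says nothing of cells that express the gene below detection. Lymphocyte markers were present in 2 cells, enteroendocrine markers in 3, stromal and endothelial markers in 10 and macrophage or dendritic cell markers in 11, with median summed levels of 0. The defining Lyz2, C1qa, Tyrobp and Itgax were listed at 0 in each. Among that list the class II genes were the most often present, with H2-Ab1 above 0 in 11.8% and Cd74 in 7.35% of the 68. Trpm5-negative cells were less uniform, with Lyz2 above 0 in 5.77% and Muc2 in 22.4% of them. Epcam was present in 97.1% of Trpm5-low cells at 109.3 ± 17.01 TPM, and Siglecf in 38.2%, against 88.9% of Trpm5-high and 3.21% of Trpm5-negative cells. The counts of these 2 sort marker genes are levels of RNA, not of the protein used for the gate.

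Within the 68 cells, tuft genes varied with depth and Trpm5, and Dmbt1 did not follow them. The number of tuft genes correlated with genes detected (Pearson r = 0.72, Spearman rho = 0.66) and with Trpm5 (0.66 and 0.70), and hardly with Dmbt1 (0.03 and 0.03). All are descriptions over 68 cells that share plates and depth. In the 34 cells with 1000 to 2329 genes the median number of tuft genes was 13, and in the 34 cells with 2384 to 6572 genes it was 25.5. Trpm5-negative cells in the same ranges had 4 and 7. Because Trpm5 above 0 chose one class and 0 the other, the higher numbers in Trpm5-low cells follow partly from that choice. The summed tuft level per cell, as a percent of the Trpm5-high mean, had a median of 6.96% and exceeded 20% in 9 cells. One cell of plate set 6 reached 127.6%, through Sh2d6 at 4709 TPM. The mean Trpm5 of surrounding wells bears on RNA passing between wells. Over adjacent wells its median was 147.04 TPM for Trpm5-low, 136.8 TPM for Trpm5-negative and 150.01 TPM for Trpm5-high cells. In the same order it was 144.2, 163.9 and 155.4 TPM by row and 143.5, 138.8 and 133.4 TPM by column. By plate it was 150.7, 163.2 and 165.99 TPM. The order of the classes thus changed with the wells taken. The part of RNA passing between wells in the low level was not tested.

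Between genotypes within Trpm5-low cells, 70 of 1645 genes were higher (4.26%) and 86 lower (5.23%) in conditional knockout, by a difference of at least 2-fold with no overlap between 3 conditional knockout and 2 wild type plate sets. Plate set and genotype cannot be told apart. The highest were Txndc11, Fau, Sh3bgrl2, Cenpv and Phrf1, and the lowest Churc1, Pstk, Mptx1, Ttc38 and Cox7c. Phrf1, a RING and PHD finger protein, reached 9.73, 28.1 and 14.5 TPM in conditional knockout plate sets 2, 4 and 5, against 2.21 and 2.17 TPM for the wild type plate sets 3 and 6. Churc1, a zinc-binding protein, stood at 1.26 TPM in plate set 2, was listed at 0 in plate sets 4 and 5, and stood at 44.5 and 32.1 TPM in plate sets 3 and 6. Ttc38 reached 123.97 TPM in plate set 3 and 1.56 TPM in plate set 6, so its wild type mean is that of 1 plate set. These counts moved by more than 1.5 times when single plate sets were left out, to at most 14.6% higher (without plate set 4) and at most 15.4% lower (without plate set 6), and leaving out plate set 2, 3 or 5 also moved at least 1 of them as far. Dmbt1 (−0.09), Sult1a1 (0.07), Krt19 (−0.28) and Cldn15 (0.01) differed little between genotypes on the log2 scale, and their plate-set values overlapped.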

How the data were processed

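Wells of colon cells were profiled by Smart-seq2 and the authors deposited TPM, a length-normalised share of transcripts summing to 1000000 per well, for 46517 mouse genes. Per the submitters' processing notes, Bowtie2 2.4.2, RSEM 1.3.3 and mm10 were used while settings, annotation release and strand use were not given in the sources used here. Reads that fit several near-identical transcripts are divided by estimation in RSEM. The deposited columns of 1 near-empty plate of 38 wells with at most 6 genes above 0 served only to count genes.

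Per the labels' protocols, libraries with late or no GAPDH amplification were discarded before sequencing. Groups came from the labels. Mean TPM was taken per plate set and class of cell, log2(mean + 1) differences within plate sets holding at least 5 cells of each class were averaged with equal weight, and a gene met the rule of size at 10 TPM in either class, a log2 difference of 1 and equal sign in all sets (for genotypes, no overlap). Low genes are understated by the pseudocount of 1 TPM. Named are the 12 highest and lowest genes against Trpm5-high cells, 10 against Trpm5-negative cells, 5 between genotypes, and members of 24 gene lists; Gm, Rik, pseudogene, mitochondrial and clone names were only counted, and a few further genes are not reported here by name. No 2 of the 68 cells had identical columns. No doublet caller was run. The members and lists were chosen with earlier results of these data known. The procedure was tested on simulated data. Python 3.11.15, pandas 2.3.3 and numpy 2.4.6 were used, with GENCODE M21 for chromosome positions.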

Additional observations from a re-analysis of the deposited data

Results flagged for a closer look

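In 2 cases 1 value stood apart from the other plate sets, both in plate set 6, by a rule that flags about 1 in 20 groups by chance. In all, 35 sets of values were searched. The Spink1 difference between Trpm5-low and Trpm5-high tuft cells was −4.78 on the log2 scale in plate set 6, less negative than in the other 4 plate sets, where Spink1 was listed at 0 in Trpm5-low cells. The Hist1h2al difference, for a histone H2A gene, was −2.26 in plate set 6, where Trpm5-low cells averaged 13.3 TPM against 0 in the other 4. Plate set 6 has the most Trpm5-low cells, 32, and Hist1h2al was above 0 in 1.47% of all 68.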

How the results depend on the processing

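No paired analysis was possible because, between genotypes, no animal is named and no plate set holds both. Gene calls between classes of cell were made within plate sets throughout. Gene calls are given as percent of tested genes, higher then lower. The signs of the 12 genes highest against Trpm5-high tuft cells held under all 17 alternatives. Settings that drop plate sets or change the pseudocount or floor could not turn them, because the rule fixed 1 direction in all plate sets. The numbers of calls moved with most settings, and the cause was not tested. Against Trpm5-high cells, calls were 9.10% higher with at least 2000 genes detected, 1.93% and 20.4% with a pseudocount of 10 TPM, 12.01% and 23.8% by the mean of logs, 7.04% and 21.5% with rescaled TPM, and 2.65% and 25.2% with a floor of 1 TPM. They were 12.04% higher in cells with 1000 to 3000 genes and 8.99% in wild type plate sets alone. Against Trpm5-negative cells, the same settings gave 1.64% and 41.9%, 0.319% and 16.6%, 3.71% and 15.2%, 5.55% higher, and 0.551% and 18.6%. Calls were 8.88% higher with 1000 to 3000 genes, 2.34% in wild type and 2.24% in conditional knockout plate sets alone, and 11.4% were lower by the mean of logs with Krt20 below 20 TPM. Between genotypes, calls were 28.3% and 14.3% with at least 2000 genes, 40.5% higher with Trpm5 below 25 TPM, 1.52% and 2.25% with a pseudocount of 10 TPM, 1.34% lower by the mean of logs, 3.30% and 11.6% with rescaled TPM, and 2.69% and 5.98% with a floor of 1 TPM.

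The share difference between genotypes turned to 2.89 points with at least 2000 genes and to 0.74 with Trpm5 below 25 TPM, where the share fell to 4.79%. The tuft gene median was 4.83% with Trpm5 below 25 TPM, 15.9% with rescaled TPM and 5.97% with 1000 to 3000 genes. Signs turned for Cenpv (−0.47) and Cox7c (0.53) between genotypes with Trpm5 below 25 TPM and for Mptx1 against Trpm5-negative cells (1.12) with 1000 to 3000 genes. Leaving out 1 plate set at a time gave 4.86 to 7.19% higher and 36.9 to 43.6% lower against Trpm5-high cells, 0.798 to 1.35% and 31.5 to 41.5% against Trpm5-negative cells (1.35% without plate set 4 or 6), 4.26 to 14.6% and 5.23 to 15.4% between genotypes, a share of 7.76 to 9.15%, a genotype difference of −2.67 to 0.86 points (0.028 without plate set 3, 0.59 without 4) and a tuft median of 7.83 to 10.8%. The unknown read depth and the 5 to 32 cells per plate set limit what a level near 0 shows.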
